A study of Saccharomyces cerevisiae with 4 samples.

Results

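The genes described here are those of sterol synthesis, esterification and regulation in budding yeast, 34 of the 5897 genes in the expression table of an industrial Saccharomyces cerevisiae strain named CY. They were taken by gene symbol from a list of genes with these functions, and all 34 were found. The table's own pathway labels put 18 of them under steroid biosynthesis and 9 under terpenoid backbone biosynthesis. The 7 without either label were ERG28, NCP1, CYB5, UPC2, ECM22, SUT1 and AUS1, which assist, supply or control the pathway. Of the 2 groups of 2 libraries, the non-stress group was grown at 30 °C in 2% glucose and the stress group at 36 °C in 10% glucose. Both groups shared the strain, a rich medium of yeast extract and peptone, a culture volume of 20 mL, shaking at 200 rpm and 10 h of growth. Temperature and glucose differed together, so their contributions cannot be told apart. Nothing in the labels says that the libraries of a group came from separate cultures, so the spread behind each p-value is that of these libraries alone and may be technical.

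Ergosterol is the main sterol of yeast membranes. Its carbon comes from acetyl-CoA through the mevalonate pathway, in which HMG-CoA reductase is the main control point, and farnesyl diphosphate is the branch point to sterols, dolichol, ubiquinone and prenylated proteins. Joining of farnesyl units gives squalene, and squalene is oxidised, cyclised to lanosterol and then demethylated, isomerised and desaturated to ergosterol. Several of the enzymes after squalene consume molecular oxygen, some of them carry heme or a non-heme iron centre, and they draw electrons from cytochrome b5 and a reductase. Excess sterol is stored as esters in lipid droplets, and the transcription factors Upc2 and Ecm22 raise ergosterol genes when sterol is short.

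Positions given for single genes are 1-based in the R64 reference, where each of the 34 has a single coding exon. Each library was described by FPKM, the fragments of a gene scaled by transcript length and by the library's mapped fragments, so levels of different genes can be set beside each other. The step size of the lowest FPKM values gave an estimated depth of 18000000 to 18650000 fragments per library. That puts the estimated reads behind a member at 57 (CYB5 in a stress library) to 11684 (ERG20). Replicates correlated at a Pearson r of 0.996 (non-stress) and 0.9977 (stress) for log2(FPKM + 1), computed across genes, which are not independent replicates. Cytosolic ribosomal protein genes held 22.5% and 23.7% of the summed FPKM in the non-stress libraries and 1.54% and 1.57% in the stress libraries, and FPKM values of all other genes are relative to totals that include them.

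Most sterol genes were lower in the stress libraries. Of the 34 genes, 25 fell and 6 rose at a Benjamini-Hochberg adjusted p under 0.05 in limma fitted across 5784 genes, and ERG8, ERG24 and ERG4 did not pass. Of all genes tested 87.7% passed in 1 direction or the other. The members' counts are 73.5% lower and 17.6% higher, where among all genes tested 47.9% were lower and 39.8% higher. The median log2 fold change of the 34 genes was -0.97, and that of all genes tested was -0.14. A fall of at least 2-fold in mean FPKM was seen for 16 members (47.1%), against 27.8% of all genes tested. The groups did not overlap for 32 of the 34, a share (94.1%) close to the 93.8% of all genes. With ribosomal protein genes left out of the totals, the median of all genes moved to -0.53, and 28 members fell and 5 rose. Under that scaling 26 members lay below the median gene, and under the main scaling 25.

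**Figure D1:**
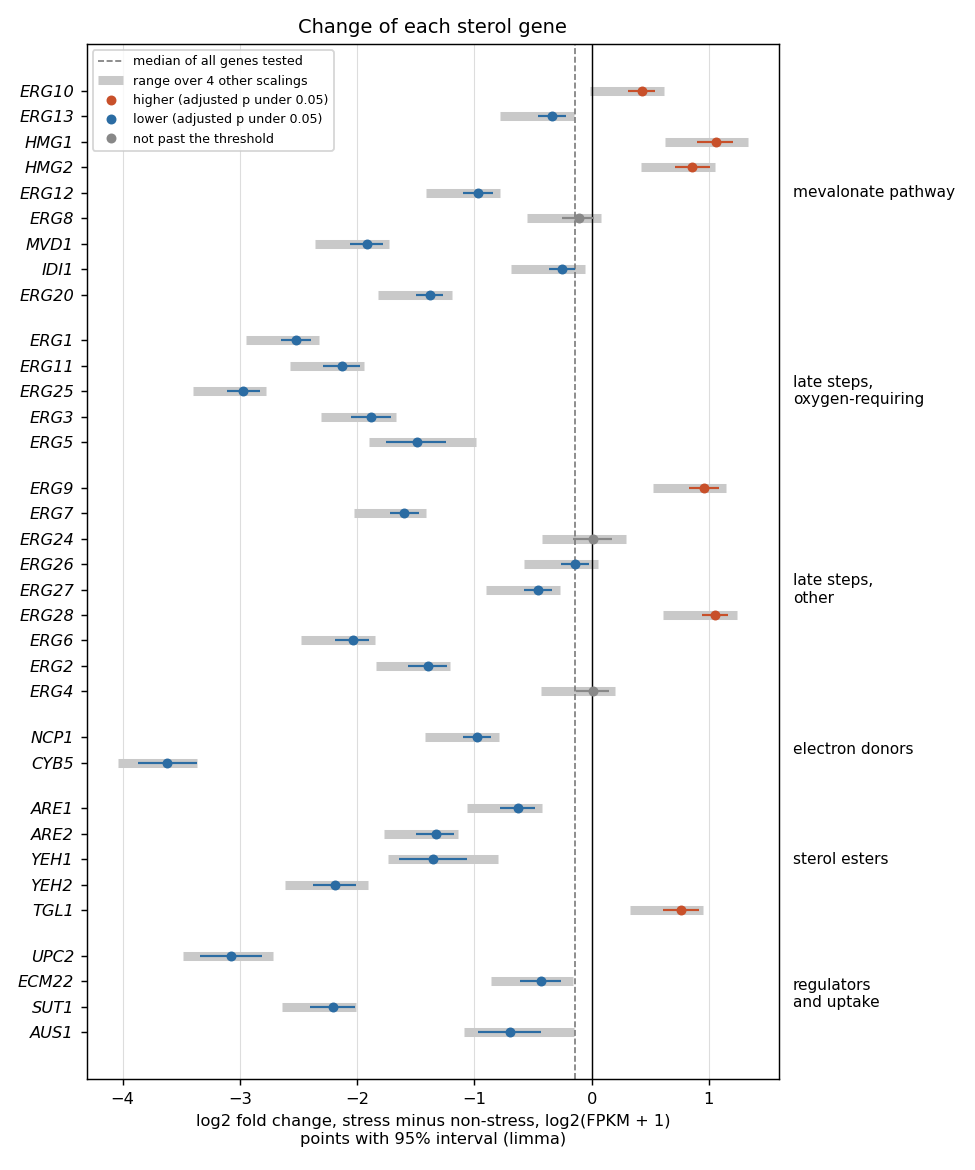
Log2 fold change (stress minus non-stress, log2(FPKM + 1) scale, x axis) of each of the 34 genes (y axis), ordered by role. Points are limma estimates with 95% intervals, coloured by call, grey bars span the estimates under 4 other scalings, and the dashed line is the median of all genes tested (-0.14). All 5 oxygen-requiring enzymes lie between -2.97 and -1.49, while the mevalonate genes spread from -1.92 to 1.06.

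The mevalonate pathway went both ways. Of its 9 genes 3 rose (33.3%), 5 fell (55.6%) and ERG8 did not pass, near the 39.8% and 47.9% of all genes tested. The median log2 fold change of the 9 was -0.25. Both genes for HMG-CoA reductase, the control point of the pathway, rose. HMG1 (chromosome XIII, 115734 to 118898, minus strand) was at 26.65 and 25.2 FPKM in the non-stress libraries and at 55.1 and 54.8 in the stress libraries. Both stress libraries lay above both non-stress libraries, and the difference was 2.12-fold, or 1.06 ± 0.067 (SE) on the log2 scale (adjusted p = 3.37e-07 in limma). HMG2, its copy, was at 47.6 and 44.5 FPKM against 87.15 and 81.2, a rise of 1.83-fold (log2 fold change 0.86 ± 0.066, SE). ERG10, the acetoacetyl-CoA thiolase that opens the pathway, was at 160.2 and 165 FPKM against 223 and 216, 1.35-fold higher. With ribosomal protein genes left out of the totals, its log2 fold change went from 0.43 to -0.01, so the direction of ERG10 depends on the scaling.

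The other 6 genes of the mevalonate pathway fell or did not pass. MVD1, mevalonate diphosphate decarboxylase (chromosome XIV, 701895 to 703085, plus strand), showed the largest fall among the mevalonate genes, from 211 and 191 FPKM to 52.8 and 51.9. Its libraries were far apart between groups, at 201 ± 14.3 and 52.3 ± 0.636 FPKM (SD, n = 2), or -1.92 ± 0.063 (SE) on the log2 scale (adjusted p = 2.79e-09 in limma). ERG20, farnesyl diphosphate synthase, had the highest non-stress level of the 34 genes and went from 585 and 612 FPKM to 225 and 233. The fall was 2.61-fold, and ERG20 was the third highest of the 34 genes in the stress libraries. ERG12, mevalonate kinase, went from 112 and 107 FPKM to 56.1 and 54.9, a fall of 1.98-fold. Smaller falls were measured for ERG13, the HMG-CoA synthase gene (159 and 160.0 FPKM to 129 and 123), and IDI1, the isomerase gene (257 and 254 FPKM to 212 and 217). The IDI1 call was lost after median centring (log2 fold change -0.25 against -0.06; limma adjusted p = 0.324). ERG8, phosphomevalonate kinase, was at 54.5 and 54.5 FPKM against 50.4 and 50.1, and its difference of -0.11 (95% interval -0.25 to 0.02) missed the threshold. ERG8 passed as lower with equal summed FPKM (-0.20; limma adjusted p = 0.0175) and with ribosomal protein genes out of the totals (-0.55; 1.19e-05), and its value was above 0 after quantile normalization (0.07) and median centring (0.08), so its direction depends on the scaling.

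**Figure D2:**
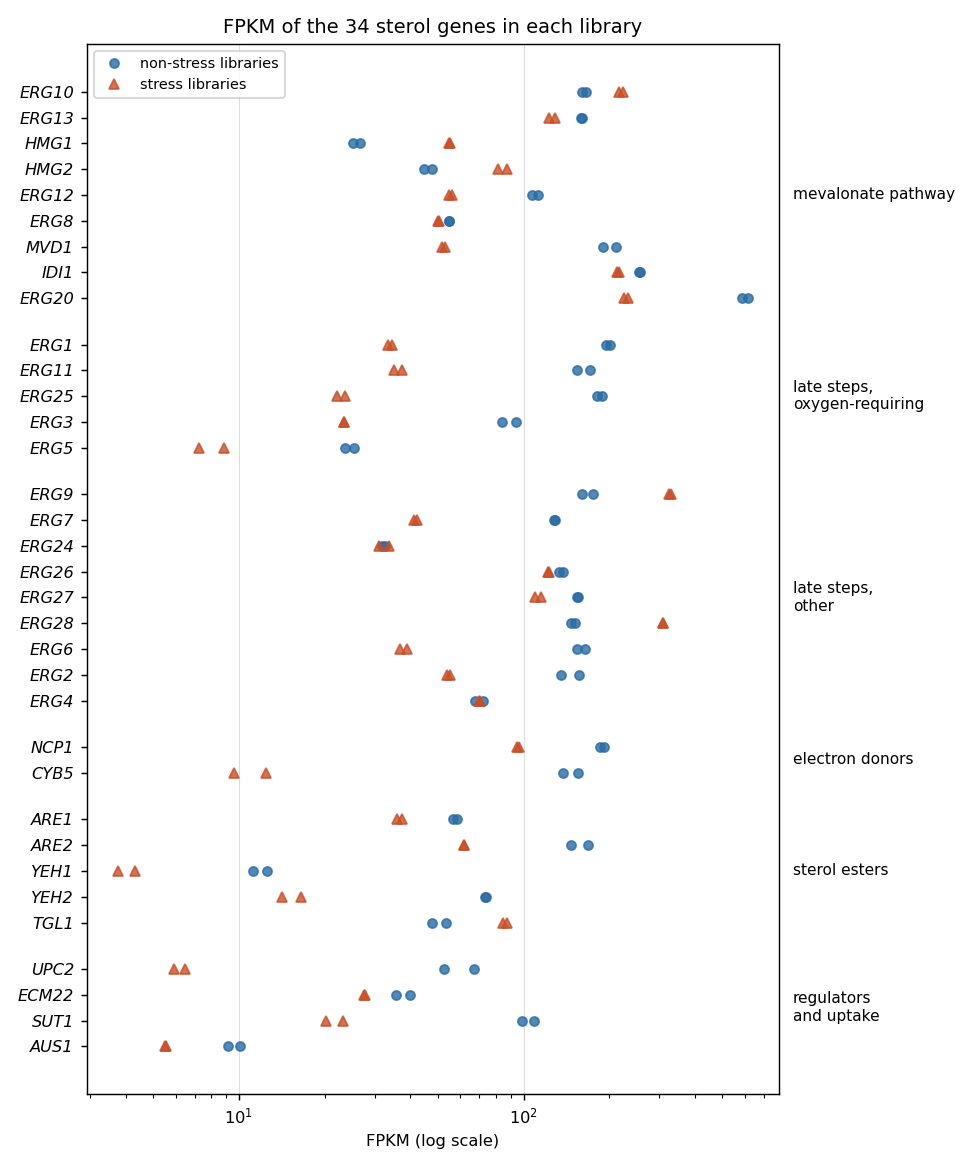
FPKM (x axis, log scale) of the 34 genes (y axis) in each of the 4 libraries, with circles for the non-stress and triangles for the stress libraries and genes ordered by role. For ERG24 and ERG4 the symbols of the groups overlap. CYB5 (138 and 155 against 9.63 and 12.5 FPKM) and UPC2 (67.1 and 52.7 against 6.44 and 5.9) show the widest gaps.

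All 5 genes for enzymes that use molecular oxygen after squalene fell, by 3.03-fold to 8.12-fold, and their median log2 fold change was -2.13. Among all genes tested 47.9% fell, and 27.8% fell at least 2-fold. ERG25, the sterol methyl oxidase (chromosome VII, 610564 to 611493, plus strand), fell most, from 181 and 189 FPKM to 23.5 and 22.1. The change was -2.97 ± 0.062 (SE) on the log2 scale (adjusted p = 1.43e-10 in limma). ERG1, squalene epoxidase (chromosome VII, 846933 to 848423, minus strand), was at 195 and 202 FPKM in the non-stress libraries and at 33.3 and 34.4 in the stress libraries. The distance between the groups was many times that between replicates, at -2.52 ± 0.056 (SE) on the log2 scale (adjusted p = 2.11e-10 in limma). ERG11, the lanosterol demethylase that azole antifungals inhibit, went from 154 and 171 FPKM to 37.3 and 35.1, a fall of 4.49-fold. ERG3, a sterol desaturase, went from 84.0 and 94.1 FPKM to 23.4 in both stress libraries, 3.8-fold lower. ERG5, the heme-containing desaturase of the sterol side chain, was the lowest of these genes in either group, at 23.6 and 25.3 FPKM against 8.86 and 7.24. The direction and the call of these 5 genes were the same under each alternative tried.

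The other 9 genes of the route from farnesyl diphosphate to ergosterol were divided. Of these, 5 fell (55.6%) and 2 rose (22.2%), against 47.9% and 39.8% of all genes tested. Their median log2 fold change was -0.14, the same as that of all genes tested. ERG9, squalene synthase (chromosome VIII, 484845 to 486179, plus strand), which commits farnesyl units to sterols, rose from 175 and 161 FPKM to 330.5 and 324. That was 1.95-fold, or 0.96 ± 0.057 (SE) on the log2 scale (adjusted p = 2.02e-07 in limma), and ERG9 was the highest of the 34 genes in the stress libraries. ERG7, lanosterol synthase, went the other way, from 128 FPKM in both non-stress libraries to 41.3 and 42.3. ERG6, the sterol methyltransferase, a marker protein of lipid droplets, fell 4.21-fold, from 154 and 164 FPKM to 36.7 and 38.9. ERG2, the sterol isomerase, fell from 135 and 157 FPKM to 54.0 and 55.1. ERG24, the sterol reductase that follows ERG11, was at 31.75 and 32.65 FPKM against 33.7 and 31.1, and its groups overlapped (log2 fold change 0.01, 95% interval -0.16 to 0.17). ERG4, the reductase of the final step, was at 67.35 and 71.9 FPKM against 69.8 and 70.5 (log2 fold change 0.01, 95% interval -0.13 to 0.15). The direction of both depends on the scaling. They passed as lower with ribosomal protein genes out of the totals, at -0.42 (ERG24; limma adjusted p = 0.000418) and -0.43 (ERG4; 7.74e-05). They passed as higher after median centring, each at 0.20 (limma adjusted p = 0.0298 for ERG24 and 0.0196 for ERG4), and ERG24 also after quantile normalization (0.29; 0.00943).

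The genes of the sterol demethylation complex differed among themselves. Erg25, Erg26 and Erg27 are its enzymes, and Erg28 is the membrane protein that holds them together. While ERG25 fell 8.12-fold, ERG28 (chromosome V, 237570 to 238016, minus strand) rose from 146 and 151 FPKM to 309 and 309.6, a change of 1.05 ± 0.049 (SE) on the log2 scale (adjusted p = 3.6e-08 in limma). ERG27, the keto reductase, fell 1.38-fold, from 154 and 155 FPKM to 109 and 115. ERG26, the decarboxylating dehydrogenase, was at 138 and 133 FPKM against 123 and 122, and its log2 fold change of -0.14 passed only narrowly (limma adjusted p = 0.0299). Its call was lost without non-stress replicate 1 (limma adjusted p = 0.0535), without stress replicate 1 (0.115) or without stress replicate 2 (0.151), and its sign turned after median centring (0.05).

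Both electron donors fell, as did 47.9% of all genes tested. CYB5 (chromosome XIV, 416940 to 417302, minus strand) encodes cytochrome b5, which feeds electrons to sterol and sphingolipid oxidases and desaturases. It had the largest change of the 34 genes, from 138 and 155 FPKM to 9.63 and 12.5. This was 13.2-fold, or -3.62 ± 0.11 (SE) on the log2 scale (adjusted p = 1.78e-09 in limma), and the stress values rest on few reads for this short gene. NCP1, the reductase that passes electrons to squalene epoxidase and the heme-containing sterol enzymes, went from 192 and 186 FPKM to 96.2 and 94.9, a fall of 1.98-fold.

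Among the sterol ester genes, 4 of 5 fell (80%) and 1 rose (20%), against 47.9% and 39.8% of all genes tested. The median log2 fold change of the 5 was -1.33. ARE2, which encodes the main acyltransferase that makes sterol esters in aerobic cells, went from 168 and 146 FPKM to 61.6 and 61.7, 2.55-fold lower. ARE1, its copy, went from 56.3 and 58.5 FPKM to 35.9 and 37.5, 1.56-fold lower. The end of ARE1 overlaps 298 bases of the opposite-strand open reading frame YCR050C, and reads of overlapping genes cannot be told apart without strand. YEH2, the plasma membrane sterol ester hydrolase, fell from 73.45 and 73.8 FPKM to 14.2 and 16.5. YEH1, the lipid droplet hydrolase, was the lowest member in the stress libraries, at 11.2 and 12.5 FPKM against 3.76 and 4.31. TGL1, the third hydrolase of this kind, rose from 47.7 and 53.2 FPKM to 87.6 and 84.7, a change of 0.76 ± 0.069 (SE) on the log2 scale (adjusted p = 4.63e-06 in limma). Of the hydrolase genes, TGL1 was below YEH2 in both non-stress libraries and above it in both stress libraries.

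All 4 genes of sterol regulation and uptake fell, with log2 fold changes from -3.08 to -0.43, where 47.9% of all genes tested fell. UPC2 (chromosome IV, 889751 to 892492, plus strand), whose product senses sterol and activates ergosterol and uptake genes, went from 67.1 and 52.7 FPKM to 6.44 and 5.90. The non-stress libraries differed from each other more than for most members (59.9 ± 10.1 FPKM, SD, n = 2), and the groups were still far apart, by -3.08 ± 0.12 (SE) on the log2 scale (adjusted p = 7.86e-09 in limma). ECM22, the copy of UPC2, went from 39.9 and 35.6 FPKM to 27.75 and 27.6, a fall of 1.36-fold. SUT1, a regulator of sterol uptake and hypoxic genes, fell 4.78-fold, from 109 and 98.5 FPKM to 20.2 and 23.2. AUS1, an ABC transporter that takes up sterol in the absence of oxygen, had the lowest non-stress level of the 34 genes, at 10.1 and 9.14 FPKM, and was at 5.54 and 5.48 in the stress libraries. Its call was lost after quantile normalization (log2 fold change -0.70 against -0.15; limma adjusted p = 0.207).

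The 34 genes together held 0.434% and 0.429% of the summed FPKM in the non-stress libraries and 0.255% and 0.252% in the stress libraries. With 2 libraries in each group an exact two-sided permutation test cannot give a p under 0.333, which is the value it gave. The stress share was 0.587 of the non-stress share, and 0.459 of it with ribosomal protein genes out of the totals. The part held by the oxygen-requiring enzymes went from 0.0644% and 0.0675% to 0.0119% and 0.0115%, 0.177 of the non-stress value. The mevalonate genes stood at 0.634 and the other late steps at 0.913 of their non-stress shares. In the latter group the gains of ERG9 and ERG28 stood beside the losses of ERG7, ERG6 and ERG2.

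**Figure D3:**
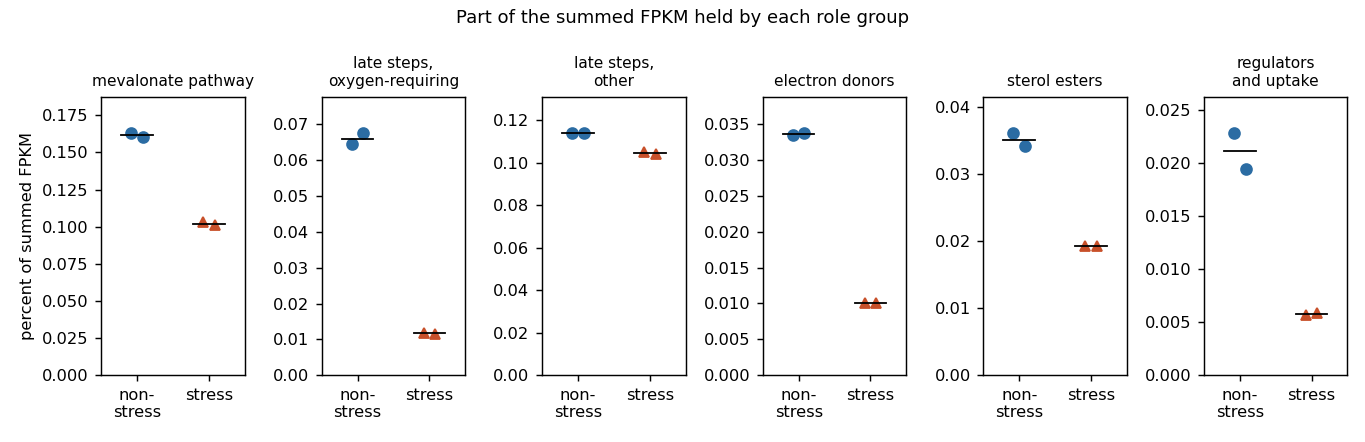
Percent of each library's summed FPKM (y axes, each starting at 0 with its own range) held by the 6 role groups; symbols are libraries and lines are group means. The oxygen-requiring enzymes went from a mean of 0.066% to 0.0117%, and the other late steps from 0.114% to 0.104%.

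Ratios within a library do not depend on its total. ERG9 over ERG1, the genes that make and oxidise squalene, was 0.899 and 0.796 in the non-stress libraries and 9.92 and 9.42 in the stress libraries. ERG28 over ERG25 was 0.81 and 0.799 against 13.2 and 14.0. These ratios were chosen after the values were seen. Among the 4 pairs of copies, UPC2 made up 62.7% and 59.7% of the summed FPKM of UPC2 and ECM22 in the non-stress libraries and 18.8% and 17.6% in the stress libraries, so that ECM22 became the more abundant transcript. ARE1 went from 25.1% and 28.6% of its pair with ARE2 to 36.8% and 37.8%. YEH1 went from 13.2% and 14.5% to 20.9% and 20.7% of its pair with YEH2, although both fell. HMG1 was the smaller part of its pair in all 4 libraries, at 35.9% and 36.1% against 38.7% and 40.3%. The groups did not overlap for any pair, and the exact permutation p was 0.333 for each, the smallest that this design allows. Apart from ARE1 and its overlap with YCR050C, no member shared a 50-base window with another coding sequence in the table.

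**Figure D4:**
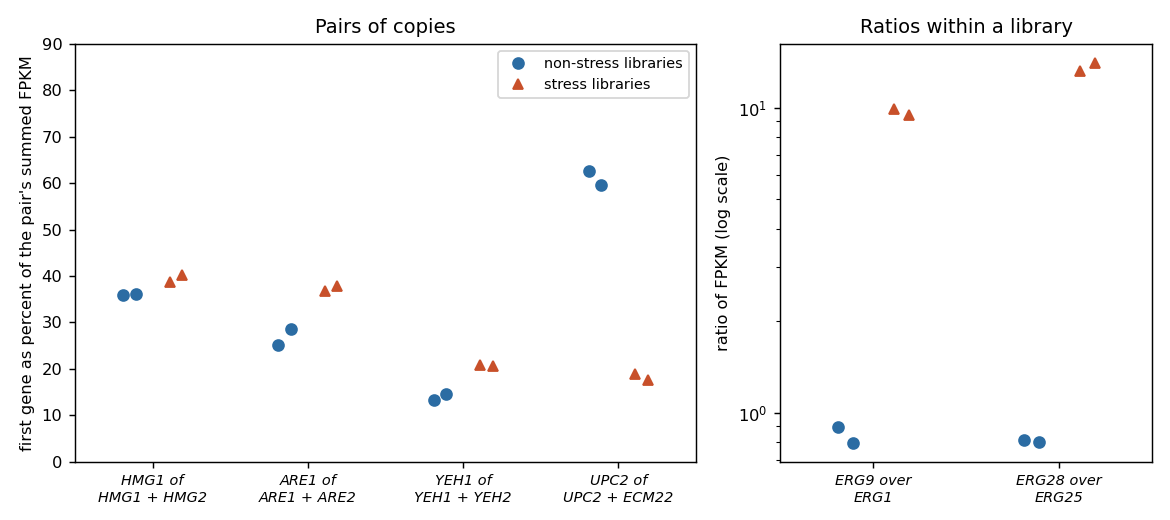
Left, FPKM of the first gene as percent of the summed FPKM of a pair of copies (y axis) for 4 pairs; right, ratio of the FPKM of ERG9 to ERG1 and of ERG28 to ERG25 (y axis, log scale). Each symbol is a library; the UPC2 part fell from 62.7% and 59.7% to 18.8% and 17.6%, and both ratios went from below 1 to above 9.

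The upstream regions of the members were searched for the core of the sterol response element bound by Upc2 and Ecm22 (TCGTATA), the core of the site of the hypoxic repressor Rox1 (ATTGTT) and the site of the respiratory activator complex of the Hap2, Hap3, Hap4 and Hap5 proteins (CCAAT). The window ran over 300 bases, 250 before the first coding base and 50 from it on, in the R64 reference genome, which may differ from that of strain CY. Both strands were read, and the motifs were allowed to overlap each other. The core TCGTATA was in the windows of 4 members (11.8%), against 4.21% of the 5897 genes. These were ERG13, ERG2, ERG8 and YEH1, of which 3 fell and ERG8 did not pass, and their median log2 fold change was -0.85 against -0.97 for the 30 without it. ATTGTT was in 17 member windows (50%), against 34.9% of all windows, and CCAAT in 16 (47.1%), against 43.6%. Of the 17 with ATTGTT, 13 fell and 4 rose (median -1.33), and of the 17 without, 12 fell and 2 rose (median -0.70). A match is a run of letters and not a shown binding site. Variant sequences and sites further upstream were not searched, so a window without a match does not show that a site is absent.

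The windows of all 4 members with the sterol response element core are printed in the direction of transcription, with the core in capitals (TCGTATA, or TATACGA where it lies on the other strand). They lie at chrXIII:667287-667586 on the plus strand (ERG2), chrXII:125284-125583 on the plus strand (YEH1), chrXIII:20486-20785 on the minus strand (ERG13) and chrXIII:712066-712365 on the plus strand (ERG8) of R64. In ERG13, the gene of HMG-CoA synthase, the core occurs at both -214 and -101 from the first coding base.
ERG2: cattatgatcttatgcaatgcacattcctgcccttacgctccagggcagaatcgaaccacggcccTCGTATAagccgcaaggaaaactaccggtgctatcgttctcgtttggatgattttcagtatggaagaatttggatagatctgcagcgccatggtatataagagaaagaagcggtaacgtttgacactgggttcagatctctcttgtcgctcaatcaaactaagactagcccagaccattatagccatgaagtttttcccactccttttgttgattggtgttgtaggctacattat
YEH1: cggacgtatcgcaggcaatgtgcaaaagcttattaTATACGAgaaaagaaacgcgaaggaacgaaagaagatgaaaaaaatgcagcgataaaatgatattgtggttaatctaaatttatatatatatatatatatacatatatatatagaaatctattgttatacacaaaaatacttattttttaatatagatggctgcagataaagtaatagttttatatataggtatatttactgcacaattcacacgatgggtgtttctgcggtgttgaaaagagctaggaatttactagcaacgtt
ERG13: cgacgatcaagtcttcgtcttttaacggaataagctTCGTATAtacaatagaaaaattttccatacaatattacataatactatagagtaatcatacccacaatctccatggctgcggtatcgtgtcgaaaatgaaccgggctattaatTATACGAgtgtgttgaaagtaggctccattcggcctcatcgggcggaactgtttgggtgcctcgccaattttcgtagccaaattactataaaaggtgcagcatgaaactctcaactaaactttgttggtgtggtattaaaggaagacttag
ERG8: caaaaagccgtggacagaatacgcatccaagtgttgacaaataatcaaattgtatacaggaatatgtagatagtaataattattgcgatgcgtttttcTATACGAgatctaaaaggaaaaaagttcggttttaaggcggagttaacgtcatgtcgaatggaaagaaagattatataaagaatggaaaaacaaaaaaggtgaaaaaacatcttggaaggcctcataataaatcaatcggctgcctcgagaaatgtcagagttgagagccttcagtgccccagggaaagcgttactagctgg

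Squalene epoxidase had the most matches to ATTGTT of any member, with 4. As many or more were found in 5 of the 5897 windows (0.0848%), that of ERG1 included. ERG1 was picked for having the most matches, so this share is not a test. Its window, chrVII:848374-848673 on the minus strand, is printed with the matches in capitals (ATTGTT, or AACAAT where it lies on the other strand).
ERG1: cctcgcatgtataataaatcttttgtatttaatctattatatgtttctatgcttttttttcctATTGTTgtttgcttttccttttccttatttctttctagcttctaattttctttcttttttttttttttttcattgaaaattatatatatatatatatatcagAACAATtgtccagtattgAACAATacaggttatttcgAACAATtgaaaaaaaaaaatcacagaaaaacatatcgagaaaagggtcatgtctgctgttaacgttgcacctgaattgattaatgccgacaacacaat

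Genes around the pathway were counted from lists of genes by function. Of 22 genes of sterol transport and exchange 8 rose (36.4%) and 10 fell (45.5%), close to the 39.8% and 47.9% of all genes tested. The median log2 fold change of the 22 was 0. NPC2, which carries sterol in the vacuole, rose 4.04-fold, from 341 ± 4.61 to 1380 ± 19.6 FPKM (SD, n = 2; limma adjusted p = 3.34e-10). LAM4, a sterol transfer protein of membrane contact sites, rose 3.71-fold. PRY2, a secreted sterol-binding protein, fell 3.25-fold, from 174 ± 4.33 to 53.5 ± 1.45 FPKM. The 4 that did not pass, named after their values were seen, were PDR11 (0.06), the partner of AUS1 in sterol uptake, LAM1 (-0.06), LAM6 (0.06) and OSH6 (0.13) on the log2 scale. Their calls depend on the scaling. With ribosomal protein genes out of the totals all 4 passed as lower, at -0.33 (PDR11; limma adjusted p = 0.0303), -0.48 (LAM1), -0.37 (LAM6) and -0.30 (OSH6). After quantile normalization all 4 passed as higher, at 0.62 (PDR11), 0.45 (LAM1), 0.30 (LAM6) and 0.40 (OSH6), with limma adjusted p of 0.00178 or less. Median centring called LAM6 (0.25) and OSH6 (0.32) higher.

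Of 12 genes of isoprenoid use outside sterol synthesis, 6 rose (50%) and 6 fell (50%), against 39.8% and 47.9% of all genes tested. The smallest rise, named after its value was seen, was that of BET2 (0.16 on the log2 scale). SRT1, also named afterwards, rose by 0.49 at low mean levels of 2.97 and 4.56 FPKM. Calls of the genes that rose were not followed under the other scalings, so the even count may depend on the scaling. The largest changes were falls. MOD5, which adds an isopentenyl group to transfer RNA, was 3.71-fold lower, RER2, the cis-prenyltransferase of dolichol synthesis, 3.22-fold lower and BTS1, which makes geranylgeranyl diphosphate, 3.03-fold lower. Of 8 genes of HMG-CoA reductase turnover and sterol sensing 6 rose (75%) and 2 fell (25%), against 39.8% and 47.9% of all genes tested. The median log2 fold change of the 8 was 0.27. The smallest rises, named after their values were seen, were HRD3 (0.17), CUE1 (0.20) and HRD1 (0.34) on the log2 scale. Calls of these genes under the other scalings were not followed, so the count of rises may depend on the scaling. NSG1, the yeast homolog of INSIG that stabilises Hmg2, fell 5.00-fold, from 81.1 ± 1.88 to 16.2 ± 1.19 FPKM (SD, n = 2), while its copy NSG2 rose 1.97-fold. The other gene that fell was SPF1, an ATPase of the endoplasmic reticulum known to affect Hmg2 degradation, 2.08-fold lower.

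Oxygen-related genes were read beside the members because several ergosterol genes respond to oxygen and heme. Of 9 genes, 7 fell (77.8%) and 2 rose (22.2%), where 47.9% of all genes tested fell and 39.8% rose. HEM13, a heme synthesis gene that is high when oxygen is short, fell 7.0-fold, from 634 ± 13.2 to 90.5 ± 0.0141 FPKM (SD, n = 2; limma adjusted p = 4.6e-11). ROX1, the repressor of hypoxic genes that itself needs heme, rose 2.98-fold, and TUP1, the corepressor, fell 4.41-fold. SPT23, the other that rose and named after its values were seen, had a log2 fold change of 0.59, which fell short of the threshold with ribosomal protein genes out of the totals (0.16; limma adjusted p = 0.0859). Of 8 anaerobic wall mannoprotein genes linked to Upc2, 4 rose (50%) and 4 fell (50%), near those shares of all genes. TIR1 fell 145-fold, from 222 and 281 FPKM to 1.67 and 1.81. These stress values rest on an estimated 22 and 24 reads, so the size of the fold is uncertain. TIR3 fell 4.07-fold, while PAU23, also called DAN2, rose 2.04-fold, from 12.3 and 18.9 FPKM to 32.4 and 31.3. Of the others, named after their values were seen, DAN1 (1.83), DAN4 (0.79) and PAU24 (0.32, with 52.9% of its 50-base windows shared) were higher and TIR2 (-0.38) and TIR4 (-0.53) lower on the log2 scale. The calls of TIR2 and PAU24, and with them the even count, were not stable. TIR2 (limma adjusted p = 0.0176) fell short of the threshold without non-stress replicate 2 (0.0793), without stress replicate 2 (-0.24; 0.169), after median centring (0.192) and with no filter (0.0505). PAU24 (limma adjusted p = 0.0493) fell short on leaving out any 1 of the 4 libraries (0.055 to 0.237), with equal summed FPKM (0.133), with a pseudocount of 0.1 (0.0534) and with the replicate block (0.068). The sign of TIR2 and TIR4 turned after quantile normalization (0.17 and 0.06), and that of PAU24 with ribosomal protein genes out of the totals (-0.05).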

How the data were processed

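Polyadenylated RNA of 4 libraries was sequenced as DNA nanoballs, per the labels' protocols. The deposited table holds FPKM for each gene in each library per the file headers, as the authors computed it, with values given to 2 decimals. HISAT2 2.1.0, Bowtie2 2.2.5, RSEM 1.2.8 and build R64 are listed in the submitters' processing notes with no role or order; read filters and strand are not given in the sources used here. All 34 members have a single coding exon and the same start and end in the table and in the R64 annotation, and lengths are coding lengths.

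The 5784 genes that reached an FPKM of 1 in 2 or more libraries were tested with limma 3.58.1 in R 4.3.3 on log2(FPKM + 1), with a pseudocount of 1, an eBayes trend (6.51 prior and 2 residual degrees of freedom), two-sided, with Benjamini-Hochberg adjustment over all genes and a threshold of 0.05. Log2 fold changes are on that scale and understate changes of low genes; plain folds are ratios of mean FPKM. Depth is an estimate: 85.9% to 90.5% of low values in genes of up to 400 bases lay within 0.1 of a whole number of reads at the best setting. No pair of replicates agreed within sampling noise (median chi-square per gene 2.23 and 0.806, where sampling gives 0.455). The members, their division by role and the lists were chosen with earlier results of these data known. All members are named; of each surrounding list, up to 3 genes past the threshold with the largest change, a mean FPKM of at least 20 and groups that do not overlap. DAN2, DAN3 and YSP1 were matched as PAU23, PAU24 and LAM1 by gene identifier. Alternatives were quantile normalization, median centring, equal summed FPKM, ribosomal protein genes out of the totals, no filter, a replicate block, a pseudocount of 0.1, a minimum FPKM of 5, each library left out and a threshold of 0.01. Python 3.11.15 with pandas 2.3.3 and matplotlib 3.10.9 served for tables and figures. The limma step was tested on simulated data in which a small part of the genes changed, as many up as down. That setting held no shift like that of the ribosomal protein genes, so how calls behave under such a shift was not tested.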

Additional observations from a re-analysis of the deposited data

How the results depend on the processing

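Of the 34 sterol genes, 27 kept their direction and their side of the threshold under every alternative tried, and counts of members ran from 5 to 8 higher and from 23 to 28 lower. The 7 others were ERG10, ERG8, IDI1, ERG24, ERG26, ERG4 and AUS1. Each had a log2 fold change between -0.70 and 0.43; the cause of each shift beyond the scaling itself was not tested. The count of other late steps that rose went from 2 to 4 after median centring. Signs turned as follows on the log2 scale. After quantile normalization they were 0.07 (ERG8), 0.45 (LAM1), 0.17 (TIR2) and 0.06 (TIR4). After median centring they were 0.08 (ERG8), 0.05 (ERG26) and 0.13 (LAM1). With equal summed FPKM they were -0.08 (ERG24), -0.07 (ERG4), -0.01 (PDR11) and -0.02 (LAM6). With ribosomal protein genes out of the totals they were -0.01 (ERG10), -0.42 (ERG24), -0.43 (ERG4), -0.33 (PDR11), -0.37 (LAM6), -0.30 (OSH6) and -0.05 (PAU24). Leaving out each library in turn gave ERG24 values from -0.05 to 0.06, ERG4 from -0.04 to 0.06, PDR11 from -0.03 to 0.16, LAM1 from -0.15 to 0.03 and LAM6 from -0.01 to 0.13. Over all genes, calls were 45.4% higher, and 31.9% (1608 higher, 3440 lower) with ribosomal protein genes out of the totals.

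The replicate numbers are not said to mark a shared batch, and the differences of replicate 1 minus 2 in the 2 groups had a correlation of -0.005 across genes. With the replicate block 6 members rose and 25 fell, as without it, and 2298 genes rose and 2775 fell over the whole table. PAU24, a list gene near the threshold, lost its call with the block (limma adjusted p = 0.068), on leaving out any 1 library (0.055 to 0.237) and under 3 other alternatives at the same threshold. CYB5, YEH1, AUS1, ERG5 and UPC2, the 5 members with the lowest FPKM in the stress libraries, rest on the fewest reads per base and had the widest intervals.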

Other observations

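The 34 genes were counted on each chromosome without a test, and the chromosomes with the most members are named here. Chromosome XIII holds 7 of them (20.6%, against 7.89% of the genes in the table), namely ERG13, HMG1, ERG6, ERG5, ERG2, ERG12 and ERG8, and chromosome XII holds 6 (17.6% against 8.55%). ERG2 (667537 to 668205), ERG12 (684467 to 685798) and ERG8 (712316 to 713671) lie close together on the plus strand of chromosome XIII in R64, and their log2 fold changes were -1.40, -0.97 and -0.11.

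The order of levels within the pathway also differed between the groups. In the non-stress libraries ERG20, IDI1, MVD1 and ERG1 were the 4 highest of the 34 genes, and ERG1 stood above 85% of the genes tested. In the stress libraries the 4 highest were ERG9, ERG28, ERG20 and ERG10, and ERG1 stood above 39.4% of the genes tested. CYB5 went from above 79.3% to above 13.8% of the genes tested, and HMG1 from above 24.2% to above 54.1%.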
